A study of Mus musculus with 4 samples.

Results

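Chemokines are small secreted proteins that steer leukocytes, and their receptors are G protein-coupled receptors on the cells that follow them. The family is named by the spacing of the first cysteines of the mature ligand, which are adjacent in CC ligands, parted by 1 residue in CXC ligands and by 3 residues in CX3C ligands. In the gut they are known for drawing T cells, plasma cells and macrophages into the mucosa and for placing B cells in lymphoid follicles. Members were set by a rule on names, with earlier results of these data known. They are mouse genes whose symbol is Ccl, Cxcl, Ccr or Cxcr with a number, with Cx3cl1, Cx3cr1 and Xcl1 added. Of 59 such symbols in the annotation, 56 had exons of their own in the deposited exon table, which makes 56 of 20773 genes in all, 37 ligands and 19 receptors. Ccl19-ps1, Ccl19-ps3 and Ccl27b had none. Ccl28, a mucosal ligand of Ccr10, is not in this annotation, and all 6 stretches of its RefSeq promoter (GRCm38.p6) that were searched lay in mm9 outside the chromosomes used for matching, so it was not counted.

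Reads came from frozen total tissue of C57BL/6 mice aged 9 to 10 weeks and kept free of specific pathogens, with no treatment or altered allele in any group. The small intestine was taken as jejunum and the colon as distal colon, per the study's methods. From each tissue there is 1 library of polyadenylated RNA, made into cDNA that was amplified and then fragmented (the cDNA libraries), and 1 library of ribosomal RNA depleted RNA made with the SOLiD V2 Whole Transcriptome Analysis Kit (the rRNA-depleted libraries). Per the study, both tissues were from the same individuals, but which animal a library came from, or whether animals were pooled, is not given in the sources used here. With 1 library per tissue and protocol there is no replicate error within a protocol. The protocols were kept apart, and a fit over all 4 libraries with protocol as a block, which leaves 1 residual degree of freedom, was not run. All intervals below are 95% intervals of counting error only.

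The ligands on which the tissue differences below turn, and the single CX3C ligand, are shown by the coding stretch around their first cysteine codons, which gives the family its names (mm9, read on the strand of the gene, cysteine codons in capitals).
Ccl25: gcctttgaagacTGCTGCctgggttaccag
Ccl5: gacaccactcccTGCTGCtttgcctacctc
Ccl6: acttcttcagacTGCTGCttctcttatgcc
Ccl8: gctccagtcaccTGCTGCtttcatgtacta
Cxcl12: agctaccgaTGCcccTGCcggttcttc
Cxcl13: aacttaaaaTGTaggTGTtctggagtg
Cx3cl1: acgaaaTGCgaaatcatgTGCgacaag

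The Ccl25 stretch lies at chr8:4353885-4353914 on the plus strand, in exon block 3 of 6, which held 4662 reads of the small intestine cDNA library and 39 of the colon cDNA library. The Ccl5 stretch lies at chr11:83342732-83342761 on the minus strand, in block 2 of 3, with 2006 and 117 reads. The Ccl6 stretch lies at chr11:83402876-83402905 on the minus strand, in block 3 of 4, with 1496 and 2625 reads. These 3 exons already differed between the tissues in the directions described below for the whole genes. The Ccl8 stretch (chr11:81929546-81929575, plus strand) lies in a block with 44 reads of small intestine and 284 of colon. The Cxcl12 stretch (chr6:117121517-117121543, plus strand) lies in a block with 36 and 64 reads, and that of Cxcl13 (chr5:96387674-96387700, plus strand) in a block with 94 and 132 reads. The Cx3cl1 stretch (chr8:97301945-97301971, plus strand) has 3 codons between its cysteines, and its block held 9 and 8 reads.

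A further pair shows how alike 2 members can be. The coding sequence of Ccl21a, which with Ccl19 guides cells that carry Ccr7 into lymphoid tissue, differed from that of Ccl21b at 2 of 399 bases, T84A and C194T (counted from the start codon, the base of Ccl21a given before the position), and Ccl21b and Ccl21c differed at 0.
Ccl21a: gggggtcaggacTGCTGCcttaagtacagc
Ccl21b: gggggacaggacTGCTGCcttaagtacagc

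None of the 35-base words of Ccl19, Ccl21a, Ccl21b and Ccl21c occurred once among the exons (0% of words). The copies of Ccl21 compared here do not by themselves account for the 0% of Ccl21a, and no copy of Ccl19 was compared. These 4 genes had 0 reads on their exon blocks in all 4 libraries, and a junction of Ccl19 had 1 read in the colon cDNA library. The authors had kept reads with a single placement, so their 0 says nothing of their level. Among the other members, Cxcl16 had 80.23% and Ccl27a 85.08% of words that occur once, and 50 of the 56 had at least 90%.

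The cDNA libraries held 22484041 (small intestine) and 24798934 (colon) uniquely placed reads, and the rRNA-depleted ones 2035386 and 3478387, so a gene at 1 RPKM (reads per kilobase of exon and 1000000 uniquely placed reads) rests on far fewer reads in the latter. The labelled tissues were checked against their markers, and all 6 enterocyte genes of small intestine (such as Lct and Sis) were called higher in small intestine and all 5 colonocyte genes (such as Car1 and Aqp8) higher in colon, in both protocols. Genes of pancreatic acinar cells were on opposite sides in the 2 protocols, with a summed level of 0.827 RPKM in small intestine and 537 RPKM in colon by cDNA, but 2900 and 8.86 RPKM in the rRNA-depleted libraries. All 7 were called, higher in colon by cDNA and higher in small intestine by rRNA depletion. Smooth muscle genes summed to 304 and 1269 RPKM by cDNA and to 238 and 2412 RPKM by rRNA depletion, higher in colon in both. The part of acinar cells and smooth muscle in the values of the members was not tested.

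Most members were found, and most of them at a low level. With presence set at more than 0.01 RPKM and no fewer than 2 start points, 47 members were present in small intestine and 46 in colon by cDNA, 31 and 35 by rRNA depletion. The median level was 2.19 and 0.891 RPKM by cDNA, and 0.868 and 0.727 RPKM by rRNA depletion. The summed level of the 37 ligands was 3264 and 854 RPKM by cDNA and 474 and 362 RPKM by rRNA depletion, while that of the 19 receptors was 47.6 and 24.7 RPKM and 31.1 and 28.4 RPKM. No receptor exceeded 11.8 RPKM (Cxcr6, small intestine cDNA library) in any library.

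In 3 of the 4 libraries, Ccl25, Ccl5 and Ccl6 carried most of the member reads. Together they held 88.9% of the 76881 member reads in the small intestine cDNA library, 75.1% of 29753 in the colon cDNA library, 54.6% of 1464 in the rRNA-depleted small intestine library and 44.8% of 2675 in the rRNA-depleted colon library. In small intestine Ccl25 alone held 62.7% by cDNA and 36.7% by rRNA depletion. In colon Ccl6 held 72.3% and 44.0%, and Ccl25 held 1.56% and 0.561%.

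**Figure D1:**
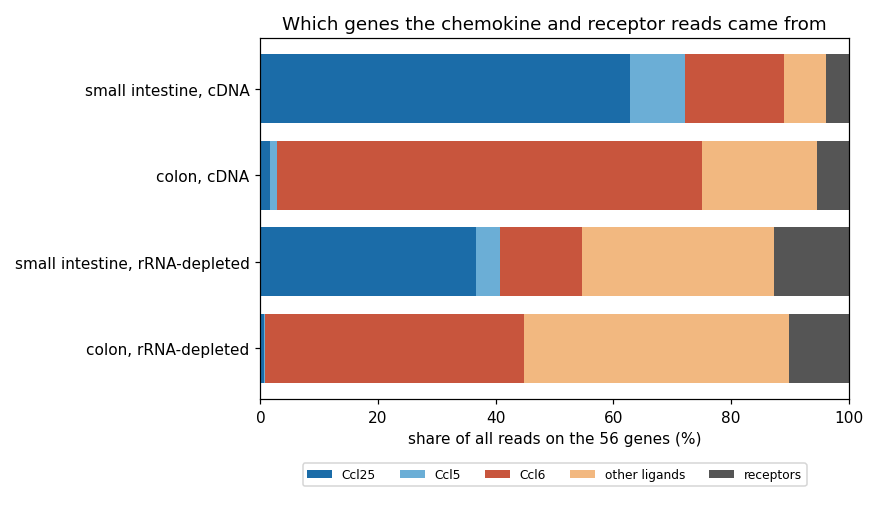
Share of all reads on the 56 chemokine and receptor genes (x axis, percent) in each of the 4 libraries (bars), split into Ccl25, Ccl5, Ccl6, the other ligands and the receptors. Ccl25 holds the widest part of both small intestine bars (62.7% and 36.7%), and Ccl6 holds 72.3% and 44.0% of the colon bars.

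Differences were called by their size, without a test. By the 3-fold rule, the RPKM of a tissue had to be at least 3 times the sum of the RPKM of the other tissue and 1. Of 48 members present in either cDNA library, 7 were called higher in small intestine, Ccl25, Ccl5, Ccr9, Cxcl9, Cxcr6, Ccl4 and Ccl24, against 2.73% of all 16441 genes present. In the colon direction 1 member was called, Ccl8, against 3.19% of all genes. This rule cannot call a gene under 3 RPKM. By the second rule, meant for low genes, the whole counting interval of the plain ratio had to lie beyond 2-fold. It called 13 members higher in small intestine (6.14% of all genes), among them Ccl22, Cxcl10, Ccr3, Ccr4 and Ccr10 beside the 7, and 3 higher in colon (13.6% of all genes), Ccl7, Ccl8 and Cxcr7. The 13 made up 27.1% of the 48 members and the 3 made up 6.25%, above and below the share of all genes.

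In the rRNA-depleted libraries 38 members were present in either. The 3-fold rule called Ccl25 and Ccl5 higher in small intestine, 2 members against 3.7% of 15047 genes, and Ccl6, Ccl8, Cxcl12 and Cxcl13 higher in colon, 4 members against 6.52%. Under the median of ratios, Ccl6 and Cxcl12 were no longer called. The interval rule called Ccl25, Ccl5 and Ccr9 higher in small intestine (5.72% of genes) and Ccl6, Cxcl12 and Cxcl13 higher in colon (10.3% of genes), in each direction 7.89% of the 38 and so close to the background. Both protocols together called Ccl25 and Ccl5 higher in small intestine by the 3-fold rule, against 1.84% of 16669 genes, and Ccr9 with them by the interval rule, against 2.76%. For colon the 3-fold rule called Ccl8 in both (2.01% of genes) and the interval rule called 0 members (4.9% of genes).

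The list as a whole lay on the small intestine side in the cDNA libraries and near the middle in the others. With 0.1 RPKM added to each level, the log2 ratio of colon over small intestine had a median of -0.81 over the 48 members present by cDNA, where the median of all genes was 0.36, and the higher level was in small intestine for 36 members and for 33.5% of all genes. By rRNA depletion it was 0.04 over 38 members, with 0.42 over all genes, and small intestine held the higher level for 18 members and 35.7% of all genes. Scaling by the median of ratios in place of total reads lowered the median over all genes by 0.27 (cDNA) and 0.33 (rRNA-depleted), and the members' medians then stood at -1.10 and -0.29, so the sign of the second depends on the scaling.

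**Figure D2:**
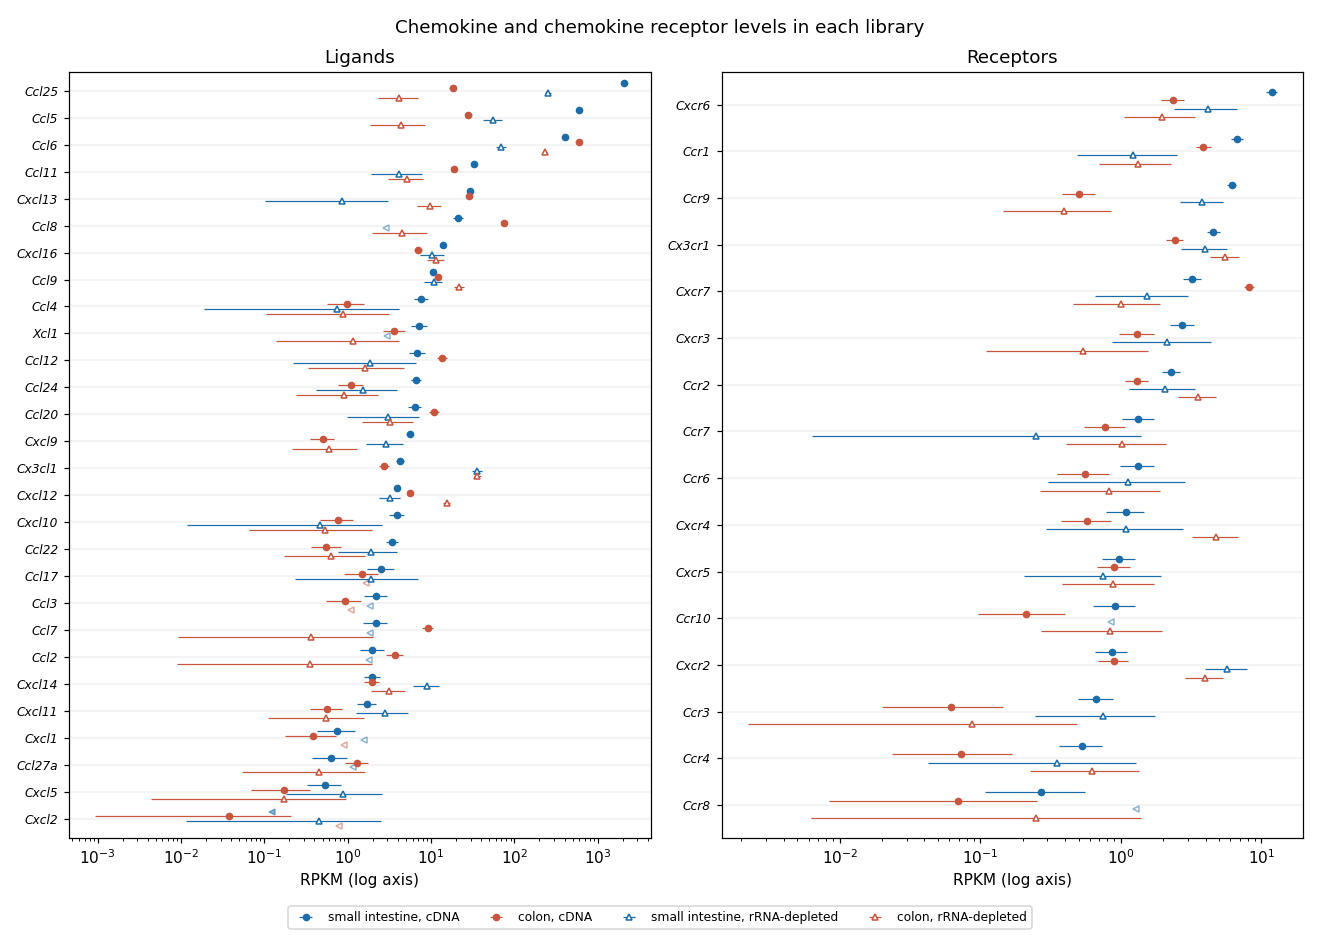
Level in RPKM (x axis, log) of the ligands (left) and receptors (right) named here, in small intestine (blue) and colon (red), by cDNA (filled circles) and rRNA depletion (open triangles). Bars are 95% counting intervals, and pale triangles pointing left mark the level that 3 reads would give where a library had 0 reads. In the small intestine cDNA library Ccl25, Ccl5 and Ccl6 stand at 2081, 604 and 400 RPKM, and the highest receptor, Cxcr6, at 11.8 RPKM.

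Ccl25, a ligand made by small intestinal epithelium and thymus, had the largest tissue difference of the family in both protocols. Its level was 2081 RPKM (2062 to 2099) in small intestine and 18.1 RPKM (16.5 to 19.9) in colon by cDNA, and 255.9 RPKM (235 to 279) and 4.18 RPKM (2.34 to 6.90) by rRNA depletion. It ranked 39 among the genes present in the small intestine cDNA library and 3394 in colon. The level in small intestine was 115-fold higher than in colon by cDNA (105 to 126) and 61.2-fold higher by rRNA depletion (36.8 to 110), the latter against 15 colon reads. In bulk tissue, fewer cells of a type and less RNA per cell cannot be told apart, here and in all ratios that follow. All 6 exon blocks of the gene (chr8:4349615-4360020) had reads in both cDNA libraries, and the last block held 65.6%, 64.9%, 71.7% and 66.7% of them in the 4 libraries, so the spread of reads along the gene was alike where the level was not. The 48231 reads of the small intestine cDNA library fell on 1664 start points and the 464 of colon on 380, the former near the limit for a gene of 1031 bases counted on both strands, so no ratio by start points is given for cDNA. By rRNA depletion, with 175 and 11 start points, the log2 ratio of colon to small intestine with each start point counted once was -4.75, still toward small intestine.

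Ccr9, the receptor of Ccl25 on gut-homing T cells and plasma cells, lay on the same side at a far lower level. It stood at 6.13 RPKM in small intestine and 0.505 RPKM in colon by cDNA, and at 3.80 and 0.393 RPKM by rRNA depletion. The small intestine level was 12.1-fold higher (9.20 to 16.3) by cDNA and 9.68-fold higher (4.02 to 28.2) by rRNA depletion. Its last block held at least 99.0% of its reads in every library. In the strand-specific rRNA-depleted libraries, 24 of 34 reads in small intestine and 1 of 6 in colon lay on the strand of the gene. The direction thus held among sense reads alone but rests on few of them. At most 1 color mismatch was found in 41.2% of its rRNA-depleted small intestine reads (14) and 43.6% of its colon cDNA reads. Of all uniquely placed reads there, 64.5% and 59.5% had so few. The share was 67.1% against 59.8% in the small intestine cDNA library, and 5 of 6 reads in the rRNA-depleted colon library. Among such reads the log2 ratio was -3.89 by cDNA and -2.11 by rRNA depletion, still toward small intestine. Whether Ccr9 then passed the interval rule was not tested.

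Ccl20, which is made by the epithelium over lymphoid follicles, and its receptor Ccr6 did not lie on 1 side. Ccl20 stood at 6.39 RPKM in small intestine and 10.9 RPKM in colon by cDNA, 1.71-fold higher in colon (1.36 to 2.16), and at 3.07 and 3.23 RPKM by rRNA depletion, where the ratio of 1.05 had an interval of 0.317 to 4.001. Ccr6 stood at 1.32 and 0.551 RPKM by cDNA, a colon to small intestine ratio of 0.418 (0.247 to 0.691), and at 1.12 and 0.819 RPKM by rRNA depletion. Cxcl14, an epithelial chemokine of healthy tissue, was at 1.97 and 1.94 RPKM by cDNA, which differed by less than counting error, but at 8.88 and 3.15 RPKM by rRNA depletion, a ratio of 0.355 (0.193 to 0.637). Cxcl17, a mucosal chemokine, had 1 and 3 reads by cDNA and 0 by rRNA depletion.

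Ccl5, made by T cells and NK cells and read by Ccr1 and Ccr3 among others, was the ligand with the next largest difference by cDNA. It stood at 604 RPKM (590 to 618) in small intestine and 28.1 RPKM (25.3 to 31.1) in colon by cDNA, and at 55.5 RPKM (42.4 to 71.5) and 4.33 RPKM (1.87 to 8.53) by rRNA depletion. The small intestine level was 21.5-fold higher by cDNA (19.4 to 23.9) and 12.8-fold higher by rRNA depletion (6.11 to 31.0), the latter from 60 and 8 reads. By cDNA the 7210 and 370 reads fell on 786 and 256 start points of a gene of 531 bases. The former is too close to the limit for a comparison by start points. By rRNA depletion, with 30 and 8 start points, Ccl5 still passed the interval rule toward small intestine.

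Ccl3 and Ccl4, the macrophage inflammatory proteins, were low. Ccl4 stood at 7.55 RPKM in small intestine and 0.978 RPKM in colon by cDNA, 7.72-fold higher in small intestine (4.55 to 14.0), and had 1 and 2 reads by rRNA depletion, too few for a comparison. Ccl3 stood at 2.20 and 0.919 RPKM by cDNA, a colon to small intestine ratio of 0.418 (0.225 to 0.749), and had 0 reads by rRNA depletion. Xcl1, the lymphotactin of T and NK cells, stood at 7.26 and 3.61 RPKM by cDNA, a ratio of 0.498 (0.338 to 0.724), with 0 and 2 reads by rRNA depletion.

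T cell markers lay toward small intestine by cDNA and mostly so by rRNA depletion. All 9 T cell genes of the list, such as Cd3e, Cd3g and Cd8a, were higher in small intestine by cDNA, 5 of them by the interval rule, and their summed level was 102 RPKM in small intestine and 26.2 RPKM in colon. Among all genes present by cDNA, 33.5% were higher in small intestine and 6.14% passed the interval rule in that direction. By rRNA depletion the sums were 24.1 and 13.1 RPKM, 6 of the 8 present were higher in small intestine, and 1, Cd3g, passed the interval rule in that direction while Cd2 (0 and 12 reads) passed the 3-fold rule toward colon. No defining marker was at 0 by cDNA. The part of T cells in the values of Ccl5, Ccr9 and Cxcr6 was not tested. Of 5 plasma cell genes 5 were higher in small intestine by cDNA, with sums of 3359 and 350 RPKM, against 359 and 373 RPKM by rRNA depletion. Igj alone made up most of these sums, at 3335 and 342 RPKM by cDNA and 347 and 359 RPKM by rRNA depletion. The part of plasma cells was not tested either.

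Ccl6 and Ccl9, rodent ligands of Ccr1 made by myeloid cells among others, lay on the colon side. Ccl6 was the leading chemokine of colon, at 400 RPKM (394 to 407) in small intestine and 604 RPKM (596 to 612) in colon by cDNA, and at 69.1 RPKM (59.9 to 79.3) and 235 RPKM (222 to 249) by rRNA depletion. It was 1.51-fold higher in colon by cDNA (1.48 to 1.54) and 3.41-fold higher by rRNA depletion (2.93 to 3.98), a 3-fold call that was lost under the median of ratios (log2 ratio 1.43). By cDNA the reads fell on 1974 and 2021 start points of a gene of 1436 bases, too close to the limit for a comparison by start points. By rRNA depletion 82 of the 1176 colon reads began at 1 position and the log2 ratio by start points was 1.03, past neither rule. Its last block held 81.4% and 81.8% of reads by cDNA.

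Ccl9 stood at 10.7 and 12.3 RPKM by cDNA and at 10.8 and 21.8 RPKM by rRNA depletion. The colon level was 1.15-fold (1.04 to 1.26) and 2.02-fold (1.53 to 2.70) that of small intestine, and the cDNA value turned to the small intestine side (log2 ratio -0.13) under the median of ratios. Ccr1, their receptor, stood at 6.66 and 3.86 RPKM by cDNA, a colon to small intestine ratio of 0.580 (0.496 to 0.677), and at 1.21 and 1.32 RPKM by rRNA depletion, a ratio of 1.09 (0.403 to 3.22). Ccl6 and Ccl9 thus did not lie on the same side as Ccr1 by cDNA, whereas Ccl5 and Ccl3, also ligands of Ccr1, did.

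The monocyte-attracting ligands, which form a row on chromosome 11, all lay on the colon side by cDNA. Ccl8, in the mouse a ligand of Ccr8, stood at 21.1 RPKM (18.5 to 23.9) in small intestine and 76.1 RPKM (71.3 to 81.0) in colon, 3.61-fold higher in colon (3.13 to 4.18), a 3-fold call that was lost under median-of-ratios scaling (log2 ratio 1.52) and with start points counted once (1.27), where the 960 colon reads fell on 481 start points of a gene of 509 bases, so that start points can understate the ratio. By rRNA depletion it had 0 reads in small intestine and 8 in colon (4.52 RPKM), which against a floor of 3 reads in small intestine is at least 1.56-fold higher in colon, while the counting interval of the ratio reaches down to 0.999. That call rests on 8 reads, 1 of them on the opposite strand.

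Ccl7 stood at 2.18 and 9.11 RPKM by cDNA, 4.19-fold higher in colon (2.95 to 6.08). Ccl12 stood at 6.80 and 13.6 RPKM, 2.001-fold (1.53 to 2.63), and Ccl2 at 1.99 and 3.70 RPKM, 1.86-fold (1.24 to 2.86). By rRNA depletion these 3 had between 0 and 3 reads in each library, so no difference was detectable at that depth. Ccr2, the monocyte receptor of Ccl2, Ccl7 and Ccl12, stood at 2.27 and 1.29 RPKM by cDNA and at 2.05 and 3.52 RPKM by rRNA depletion, with ratios of colon to small intestine of 0.570 (0.447 to 0.723) and 1.72 (0.937 to 3.32). As with Ccl6 and Ccl9, the ligands and the receptor were on opposite sides by cDNA.

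Macrophage and monocyte markers lay on both sides by cDNA and mostly toward colon by rRNA depletion. Of 8 genes, 5 lay toward small intestine and 3 toward colon by cDNA, with Cd14 called toward colon and Emr1 passing the interval rule toward small intestine, and the sums were 133 and 185 RPKM. By rRNA depletion 7 of 8 were higher in colon, Cd14 and Emr1 passing the interval rule in that direction, with sums of 33.8 and 82.7 RPKM. The exception was Csf1r, which lay toward small intestine in both protocols. Its colon to small intestine ratio was 0.620 (0.527 to 0.729) by cDNA and 0.535 (0.386 to 0.741) by rRNA depletion. Their part in the values of Ccl6, Ccl8 and Ccl9 was not tested.

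**Figure D3:**
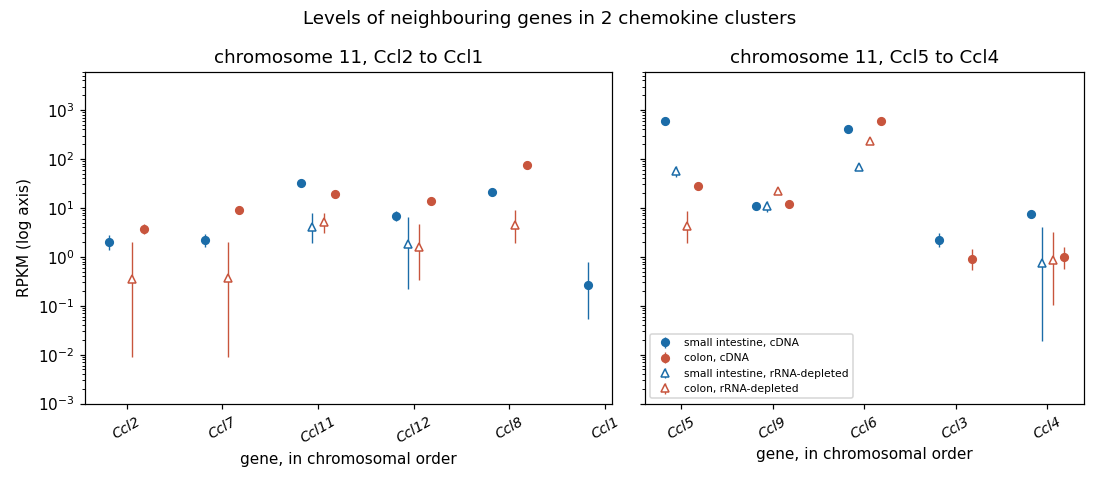
Levels in RPKM (y axis, log) of neighbouring genes in 2 clusters, in chromosomal order, with 95% counting intervals, for small intestine (blue) and colon (red) by cDNA (filled circles) and rRNA depletion (open triangles). Values of 0 are not drawn. In the cluster from Ccl2 to Ccl1, Ccl11 lies on the small intestine side by cDNA between neighbours on the colon side, and in the cluster from Ccl5 to Ccl4 the directions of Ccl5 and Ccl6 are opposite.

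Neighbours on a chromosome did not always share a direction. In the row from Ccl2 to Ccl1 (chr11:81849079-81993314), Ccl2, Ccl7, Ccl12 and Ccl8 lay toward colon by cDNA, whereas Ccl11, which sits between Ccl7 and Ccl12, lay toward small intestine. In the row from Ccl5 to Ccl4 (chr11:83339281-83478185), Ccl5, Ccl3 and Ccl4 lay toward small intestine and Ccl9 and Ccl6, which sit between Ccl5 and Ccl3, toward colon (Ccl9 not under the median of ratios). On chromosome 9 the receptor genes Ccr9, Cxcr6, Ccr1, Ccr3 and Ccr2, which are neighbours, each had the higher level in small intestine by cDNA. Ccr1l1, which lies among them, had 2 and 0 reads by cDNA and 0 by rRNA depletion.

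Ccl11 and Ccl24, the eotaxins that draw eosinophils, lay toward small intestine by cDNA. Ccl11 stood at 32.4 and 18.8 RPKM, a colon to small intestine ratio of 0.580 (0.518 to 0.650), and at 4.12 and 5.09 RPKM by rRNA depletion, a ratio of 1.23 (0.533 to 3.10) from 9 and 19 reads. Ccl24 stood at 6.62 and 1.09 RPKM by cDNA, 6.05-fold higher in small intestine (4.20 to 8.94), and had 4 reads in each rRNA-depleted library. Its 3-fold call by cDNA was lost among reads with at most 1 color mismatch (log2 ratio -2.37). Their receptor Ccr3 stood at 0.666 and 0.0616 RPKM by cDNA, from 49 and 5 reads, 10.8-fold higher in small intestine (4.33 to 34.8), and had 5 and 1 reads by rRNA depletion. Of 4 eosinophil genes found, 3 were present by cDNA, with 2 on the small intestine side and 1 on the colon side, and the sums were 10.1 and 2.87 RPKM. Prg2, a granule protein, made up most of these sums at 9.39 and 2.31 RPKM and passed the interval rule toward small intestine, while Il5ra, a receptor subunit for interleukin-5, had 16 and 25 reads, a colon to small intestine ratio of 1.42 (0.727 to 2.84). By rRNA depletion the sums were 8.07 and 3.45 RPKM, and Il5ra passed the interval rule toward small intestine with 34 and 15 reads. Prg2 had 3 and 0 reads there. Siglec5 lay toward colon there with 8 and 19 reads, a colon to small intestine ratio of 1.39 (0.581 to 3.67). Epx was at 0 in every library. The part of eosinophils was not tested. Ccl26 had 0 reads in every library.

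Cxcl9, Cxcl10 and Cxcl11, which interferon induces and which call cells with Cxcr3, were all higher in small intestine by cDNA. Cxcl9 stood at 5.56 and 0.4997 RPKM, 11.1-fold higher (7.89 to 16.1), Cxcl10 at 3.89 and 0.759 RPKM, 5.13-fold (3.14 to 8.78), and Cxcl11 at 1.71 and 0.560 RPKM, 3.06-fold (1.85 to 5.23). By rRNA depletion Cxcl9 stood at 2.88 and 0.594 RPKM, a colon to small intestine ratio of 0.207 (0.0667 to 0.549), and Cxcl11 at 2.79 and 0.544 RPKM, 0.195 (0.0340 to 0.782), while Cxcl10 had 1 and 2 reads. By rRNA depletion Cxcl9 rested on 17 and 6 reads and Cxcl11 on 9 and 3, and 2 of those 3 lay on the opposite strand. Both genes lay toward small intestine in both protocols, but neither passed a rule by rRNA depletion. Restricting Cxcl10 to whole exon blocks that overlap no other gene moved its cDNA log2 ratio from -2.22 to -1.07. This left out its last block, which held 82.8% of its small intestine reads and 60.0% of its colon reads by cDNA. The restricted ratio thus rests on few reads. Cxcr3 stood at 2.74 and 1.30 RPKM by cDNA, a colon to small intestine ratio of 0.476 (0.334 to 0.673), and at 2.14 and 0.536 RPKM by rRNA depletion, 0.251 (0.0418 to 1.10).

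Ccl17 and Ccl22 call cells with Ccr4, a receptor of T helper and regulatory T cells. Ccl22 stood at 3.44 and 0.557 RPKM by cDNA, 6.18-fold higher in small intestine (4.01 to 9.87), and at 1.90 and 0.635 RPKM by rRNA depletion, 2.99-fold (0.760 to 13.9). Ccl17 stood at 2.51 and 1.49 RPKM by cDNA, a colon to small intestine ratio of 0.594 (0.315 to 1.10), with 2 and 0 reads by rRNA depletion. Ccr4 had 33 and 5 reads by cDNA (0.527 and 0.0723 RPKM), 7.28-fold higher in small intestine (2.82 to 23.9), but 2 and 6 by rRNA depletion. Ccl22 and Ccr4 were thus on the small intestine side by cDNA, and the rRNA-depleted reads were too few to place Ccr4.

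Ccl27a, a skin chemokine, and Ccr10, its receptor and that of the uncounted Ccl28, were near the floor. Ccl27a had 18 and 41 reads by cDNA (0.624 and 1.29 RPKM), 2.07-fold higher in colon (1.16 to 3.82), of which 72.2% and 58.5% fell in 1 of its 6 blocks. Ccr10 had 35 and 9 reads (0.902 and 0.210 RPKM), 4.29-fold higher in small intestine (2.02 to 10.2), a call lost with start points counted once. By rRNA depletion Ccl27a had 0 and 2 reads and Ccr10 0 and 5, and all 5 of the latter lay on the strand opposite to the gene. Ccr8 had 7 and 2 reads by cDNA, and Ccl1, its other ligand, 3 and 0.

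Cxcl12 and Cxcl13, which retain and arrange leukocytes in lymphoid tissue, differed most by rRNA depletion. Cxcl12 stood at 3.96 RPKM (3.66 to 4.28) in small intestine and 5.60 RPKM (5.25 to 5.96) in colon by cDNA, and at 3.24 RPKM (2.38 to 4.31) and 15.4 RPKM (13.9 to 17.0) by rRNA depletion. The colon level was 1.41-fold (1.28 to 1.56) and 4.76-fold (3.51 to 6.58) that of small intestine, and the rRNA-depleted interval lay above the cDNA interval. The 3-fold call by rRNA depletion was lost under the median of ratios (log2 ratio 1.88) and with start points counted once (1.72). Block 3 of its 4 blocks, which is not the longest, held 70.9%, 68.2%, 63.8% and 72.0% of reads in the 4 libraries. Cxcl13, made in B cell follicles, stood at 29.6 RPKM (27.6 to 31.8) and 28.9 RPKM (27.0 to 31.0) by cDNA, a ratio of 0.977 (0.885 to 1.08), but at 0.846 RPKM (0.102 to 3.06) and 9.65 RPKM (6.86 to 13.2) by rRNA depletion. That is 11.4-fold higher in colon (2.95 to 97.5), from 2 and 39 reads, and by start points it no longer passed the interval rule.

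By rRNA depletion all 6 fibroblast genes and all 4 lymphatic endothelial genes had the higher level in colon, with Dcn, Lum, Lyve1 and Pdpn called by both rules. Among all genes present there, 35.7% had the higher level in small intestine. Of 5 follicle genes present there, 4 had the higher level in colon and 1 in small intestine, and 0 passed either rule. By cDNA 4 of 6, 2 of 4 and 3 of 6 genes of these lists had the higher level in colon, and 0 were called. The 6 fibroblast genes summed to 61.1 and 227 RPKM there and to 235 and 264 RPKM by cDNA, the 4 lymphatic endothelial genes to 8.95 and 38.9 RPKM and to 17.9 and 21.4 RPKM, and the 6 follicle genes found to 16.1 and 33.9 RPKM and to 25.9 and 34.5 RPKM. For each list the colon to small intestine ratio of the sums was larger by rRNA depletion. Dcn made up most of the fibroblast sums by cDNA (184.7 and 204.5 RPKM) and of the colon sum by rRNA depletion (143.3 RPKM). The ratios of Dcn, Lum and Pdgfra were larger by rRNA depletion. Those of Col1a1 (1.68 by cDNA and 1.01 by rRNA depletion), Col1a2 (1.75 and 1.34) and Col3a1 (2.04 and 2.03) were not. All 6 endothelial genes and 7 of 8 B cell genes also had the higher level in colon by rRNA depletion. By cDNA 3 of the 6 and 2 of the 8 did. The B cell genes summed to 22.4 and 31.9 RPKM by rRNA depletion but to 63.7 and 36.4 RPKM by cDNA. Among them Cd79b was called toward colon by the 3-fold rule by rRNA depletion. Ms4a1 passed the interval rule toward small intestine by cDNA. The part of any of these lists in the values of Cxcl12 and Cxcl13 was not tested.

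The receptors of these ligands were low. Cxcr4, the receptor of Cxcl12, had 44 and 26 reads by cDNA (1.08 and 0.578 RPKM), a colon to small intestine ratio of 0.536 (0.317 to 0.889), but 4 and 30 reads by rRNA depletion (1.08 and 4.75 RPKM), a ratio of 4.39 (1.55 to 17.1). The intervals do not overlap and lie on opposite sides of 1. Cxcr7, which takes up Cxcl12, stood at 3.19 and 8.18 RPKM by cDNA, 2.56-fold higher in colon (2.16 to 3.05, a call lost with start points counted once), and at 1.52 and 1.003 RPKM by rRNA depletion, 0.658 (0.225 to 1.96). Cxcr5, the follicular receptor of Cxcl13, stood at 0.970 and 0.894 RPKM by cDNA and 0.752 and 0.880 RPKM by rRNA depletion. Ccr7, the receptor of Ccl19 and the Ccl21 genes, stood at 1.33 and 0.776 RPKM by cDNA, 0.584 (0.378 to 0.893), with 1 and 7 reads by rRNA depletion.

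Cxcl16 and Cx3cl1 are made as transmembrane proteins. Cxcl16 stood at 14.1 and 7.05 RPKM by cDNA, a colon to small intestine ratio of 0.4999 (0.435 to 0.574), and at 10.4 and 11.4 RPKM by rRNA depletion, 1.10 (0.733 to 1.66). Its receptor Cxcr6, of tissue-resident T cells, stood at 11.8 and 2.34 RPKM by cDNA, 5.04-fold higher in small intestine (4.10 to 6.26), and at 4.15 and 1.97 RPKM by rRNA depletion, 2.10-fold (0.949 to 4.75).

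Cx3cl1, fractalkine, stood at 4.27 and 2.72 RPKM by cDNA, a ratio of 0.636 (0.531 to 0.761), and at 35.8 and 36.0 RPKM by rRNA depletion, 1.004 (0.851 to 1.19). Set side by side, although the protocols were scaled apart, its rRNA-depleted value was 8.38 times the cDNA value in small intestine and 13.2 times in colon, the highest such ratios of the members for which one was computed. For Ccl25 and Ccl5 in small intestine the same ratio was 0.123 and 0.0919. All its rRNA-depleted reads were on the strand of the gene (229 of 229 and 393 of 393), and its last block held 94.0%, 95.3%, 99.1% and 95.7% of them. Cx3cr1, its receptor on gut macrophages, stood at 4.56 and 2.41 RPKM by cDNA, 0.529 (0.447 to 0.626), and at 3.95 and 5.47 RPKM by rRNA depletion, 1.38 (0.892 to 2.20).

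The neutrophil-attracting ligands were at or near the floor in both tissues. By cDNA Cxcl1 had 16 and 9 reads, Cxcl5 20 and 7, Cxcl15 19 and 12, Cxcl2 0 and 1, and Cxcl3 0. By rRNA depletion none of these 5 had more than 3 reads in a library. Their receptor Cxcr2 appeared level at 0.862 and 0.888 RPKM by cDNA and 5.65 and 3.97 RPKM by rRNA depletion. Of its reads, however, 11.9%, 2.99%, 22.9% and 2.38% matched with at most 1 color mismatch in the 4 libraries, against 59.8%, 59.5%, 64.5% and 67.4% of all uniquely placed reads, and 15 of 35 and 25 of 42 lay on the opposite strand by rRNA depletion. No ratio is given for Cxcr2 for this reason. Cxcr1 had 0 and 2 reads by cDNA and 0 by rRNA depletion. Neutrophil genes were low too, with sums of 2.24 and 1.14 RPKM by cDNA over 6 genes.

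Among known ligand and receptor pairs, Ccl25 and Ccr9 both had the higher level in small intestine in both protocols, with all 4 counting intervals clear of 1. Cxcl9 and Cxcl11 did so too, but the interval of their receptor Cxcr3 reached past 1 by rRNA depletion. Cxcl11 had only 9 and 3 reads there. Ccl24 and Ccr3 were on the small intestine side by cDNA, and their intervals by rRNA depletion, 0.109 to 3.14 and 0.00247 to 1.05, both spanned 1.

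Of 38 other genes of the pathway, which include atypical receptors, signalling proteins and enzymes that trim or bind chemokines, all were present by cDNA and 37 by rRNA depletion. By the 3-fold rule 2 were called higher in small intestine in both protocols, Dpp4 and Cd74. Dpp4, the brush border peptidase that trims chemokines such as Ccl5, stood at 364 and 6.98 RPKM by cDNA and 127 and 16.6 RPKM by rRNA depletion. Cd74, the invariant chain and a receptor of Mif, stood at 1781 and 140 RPKM and 1556 and 292 RPKM. Toward colon, 1 was called by cDNA, Pf4, a platelet CXC chemokine outside the naming rule, at 12.1 and 65.0 RPKM, and 2 by rRNA depletion, the atypical receptor Ccrl1 at 2.61 and 15.9 RPKM and the heparan sulfate proteoglycan Sdc1 at 60.3 and 199 RPKM. The shares of all genes called are those given above for the members. By the interval rule 10 lay toward small intestine and 5 toward colon by cDNA, where 6.14% and 13.6% of all genes were called, and 4 and 3 by rRNA depletion, where 5.72% and 10.3% were. Dpp4 and Cd74 lay toward small intestine and Sdc1 and Sdc4 toward colon in both. The list had a median log2 ratio of 0.08 by cDNA and 0.41 by rRNA depletion, where all genes had 0.36 and 0.42.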

How the data were processed

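The deposited files hold, for each of 4 libraries, the placements of single reads (position, strand, color mismatches), and tables of exon blocks and junctions. The authors matched 35 colors per read with up to 3 mismatches to RefSeq exon blocks and junctions of mm9 and kept reads with 1 placement. These values carry no normalized unit (other). The study's methods name SOLiD BioScope for matching to the genome, and whether it also made these placements on exon blocks is not given in the sources used here. For the Whole Transcriptome Analysis Kit the methods name poly-A enrichment and the labels ribosomal RNA depletion, and the labels were followed. The cDNA totals listed in the paper equal the deposited ones, but those of its RNA fragmented libraries differ from the rRNA-depleted totals. Whether these are the same libraries is not given in the sources used here.

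Reads on blocks were counted per gene by start position with a tolerance of 3 bases, blocks being joined by shared junctions and named with GENCODE M1 on mm9. The counts and start points equal those of the deposited reports, which list 77504263, 83302412, 36419942 and 37466674 total reads. Reads on junctions (0.822%, 0.815%, 0.754% and 0.82%) entered depth, not levels. RPKM ratios have exact conditional binomial intervals and levels exact Poisson intervals (95%), a count of 0 was set against 3 reads, and PCR duplicates make these too narrow. Members and lists were chosen with earlier results of these data known. Members named are those of at least 1 RPKM and 20 reads in a library, and their receptor or ligand partners. The call and interval code was tested on simulated counts. Alternatives were median-of-ratios scaling, start points, at most 1 mismatch, junction reads, sense reads and whole exon blocks free of other genes. A penalty of 0.1, another presence rule, 10 reads and 1 RPKM added were the others. Python 3.11.15, numpy 2.4.6, pandas 2.3.3, scipy 1.17.1 and matplotlib 3.10.9 were used. Some items are not reported here.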

Additional observations from a re-analysis of the deposited data

Results flagged for a closer look

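Cxcr4 was picked out because its tissue ratio lay on opposite sides of 1 in the 2 protocols with intervals that do not overlap, at 0.536 for colon over small intestine in the cDNA libraries and 4.39 in the rRNA-depleted libraries. Each value rests on 1 library per tissue, and the difference itself was not tested.

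Reads on the strand opposite to the gene, which the levels do not separate, were above the limit that 3 reads set for some members of the strand-specific rRNA-depleted libraries. Cxcr2 had 15 in small intestine and 25 in colon, Ccr9 had 10 in small intestine and 5 in colon, and Ccl9 had 5 in each. In the colon library Ccr10 had 5 and Cxcr6 had 4. Over all genes 98.5% (small intestine) and 98.4% (colon) of reads lay on the strand of the gene, and over the members 96.8% and 98.0%.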

How the results depend on the processing

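The labels give no replicate numbers, so no fit with a replicate block was made, and tissues paired within protocol were not fitted. Leaving out a replicate was not possible, with 1 library per group. Of 407 tissue ratios of named genes under alternatives, 378 stayed within their counting interval, 29 did not, 15 of these under the median of ratios, and no called ratio turned. Of 100 counts and medians, 82 stayed within 1.5 times the reported count or within the interval of the median.

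Under the median of ratios the members called toward colon fell to 0 by cDNA, 2 by rRNA depletion (Ccl8 and Cxcl13) and 0 in both, and the other pathway genes toward colon by rRNA depletion to 1. With a penalty of 0.1 RPKM the members called were 12 (small intestine) and 2 (colon) by cDNA, 11 and 10 by rRNA depletion, and 5 and 2 in both. Of all genes present this penalty called 4.22% and 8.2% by cDNA, 7.05% and 16.2% by rRNA depletion, where 9 and 8 of the members called were present, and 2.58% and 4.76% in both. With it 8 pathway genes were called toward colon by rRNA depletion. With start points counted once, which have a limit in genes with many reads, pathway genes called were 1 toward small intestine and 0 toward colon by cDNA and 1 toward small intestine by rRNA depletion. By start points the members called toward colon in both protocols were 0, and 1 passed the interval rule toward colon by rRNA depletion, a setting added after the data had been seen. With at least 10 reads the members called toward colon in both were 0, since Ccl8 has 8 reads by rRNA depletion. Adding 1 RPKM moved the median log2 ratio by cDNA to -0.50. The cause of the other changes was not tested.

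In the shallower rRNA-depleted libraries 19 and 15 members had 0 reads, against 8 and 8 by cDNA, in each case with the 4 genes that have no single-occurrence words. Amplification of cDNA is not covered by the intervals.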
